A study of Mus musculus with 7 samples.

Results

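Of 70193 regions of the mouse genome that carried a C-MYC or SOX2 peak in iMOP cells, 2576 carried a peak in all 6 deposited peak lists, those of C-MYC replicates 1 and 2, SOX2 replicates 1 and 2 and RNA POLII replicates 1 and 2. The regions were made by merging C-MYC and SOX2 peaks that shared at least 1 bp. They were then chosen by the presence of a peak of each of these 4 factor lists and of both POLII lists, so the 6 measurements described here are also the ones that selected the regions, and all values are given as a description with no test. The 2576 regions were 3.67% of the merged regions. They measured from 285 to 11632 bp, with a median length of 1431.5 bp.

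C-MYC is a basic helix-loop-helix leucine zipper protein that binds DNA with its partner MAX, and it is known for occupying the promoters of many transcribed genes in dividing cells. SOX2 is an HMG-box protein that maintains progenitor states in the nervous system and the inner ear, where it is needed for the sensory lineages. RNA POLII transcribes protein-coding genes and gathers at their starts, so a place where all of these proteins are found is often an active promoter or enhancer. In ChIP-seq, chromatin is pulled down with an antibody and the DNA in it is sequenced, and a peak is a stretch with more sequence tags than the background.

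The cells, iMOP for immortalized multipotent otic progenitor, are a mouse line made from SOX2-expressing inner ear precursors with a *c-Myc* retrovirus. All 6 libraries came from iMOP cells grown as floating otospheres in DMEM/F12 with B27 and 20 ng/ml of bFGF, with no other condition to compare. The antibodies were clone 4H8 for RNA POLII, N-262 for C-MYC and clone 6F1.2 for SOX2, each used on 2 biological replicates. The input DNA library was not analysed here.

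A list held between 26637 and 53528 peaks, with 1705241 to 4488517 tags inside them, which is the only depth the files give. A tag is a sequenced read, tag numbers were raw counts that were not scaled between libraries, and they also rise with the length of a peak. Fold enrichment was a ratio, on a linear scale, of peak to background as deposited. POLII replicate 1 stood apart from the other lists. It had the most peaks and the fewest tags, with a median of 23 tags in a peak over the whole list, against 35 to 68 in the other lists. SOX2 replicate 1 resembled POLII replicate 2 more than it resembled SOX2 replicate 2 within the regions, by tags and by summits. Some of the counts, shares, correlations, distances and medians that rest on these lists are therefore also given with POLII replicate 1 or SOX2 replicate 1 left out of the rule. The other values are given under the full rule only. Regions are not replicates, each antibody had n = 2, and the 95% Wilson confidence intervals of shares cover counting error only.

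POLII replicate 1 set the number of the regions. Both C-MYC lists had a peak in 35618 of the merged regions, both SOX2 lists in 16580, and all 4 factor lists in 14495. A peak of POLII replicate 2 was present in 13037 of those 14495 regions, and a peak of POLII replicate 1 in 2787. The regions in all 6 lists were 17.8% of the 14495 factor regions. They were 19.8% of the 13037 that had POLII replicate 2, and 92.4% of the 2787 that had POLII replicate 1. Over all 14495 factor regions, POLII replicate 2 had a peak in 89.9% and POLII replicate 1 in 19.2%. The shares of 92.4% and 19.8% lay near these. Most factor regions with POLII replicate 1 thus also had POLII replicate 2, but so did most factor regions as a whole.

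Regions that missed 1 list were counted in the same way. A peak of POLII replicate 1 alone was missing in 10461 regions, of SOX2 replicate 2 alone in 1011, and of POLII replicate 2 alone in 211. Those that missed only SOX2 replicate 1 numbered 102, only C-MYC replicate 1 51, and only C-MYC replicate 2 48. Among the merged regions, 20826 had a peak in 1 list, 11884 in 5 lists and 2576 in 6 lists. A further 1247 regions had all 4 factor lists and neither POLII list.

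The regions took a larger share of the tags of each list than of its peaks. They held 6.15% of the peaks and 12.8% of the tags of C-MYC replicate 1, and 5.90% of the peaks and 12.7% of the tags of C-MYC replicate 2. For POLII these shares were 4.85% of the peaks and 5.99% of the tags in replicate 1, and 8.16% and 16.5% in replicate 2. SOX2 replicate 1 had 6.49% of its peaks and 15.2% of its tags there, and SOX2 replicate 2 had 9.73% and 11.4%. The excess of tags over peaks was thus smallest in POLII replicate 1 and SOX2 replicate 2. Nearly every region held a single peak of each list, and from 14 to 32 regions, by list, held more than 1.

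The strength of the peaks differed widely within the regions. In C-MYC replicate 1 the peaks held from 9 to 1959 tags with a median of 113, and in C-MYC replicate 2 from 9 to 2014 with a median of 124. POLII replicate 1 ranged from 12 to 1280 tags with a median of 29, and POLII replicate 2 from 12 to 3500 with a median of 253.5. SOX2 replicate 1 ranged from 10 to 913 with a median of 148, and SOX2 replicate 2 from 13 to 1303 with a median of 65. The C-MYC replicates lay close together, whereas those of POLII and of SOX2 did not. Per kb of peak, the medians were 94.7 and 99.7 tags for C-MYC, 39.2 and 199 for POLII, and 115 and 62.4 for SOX2, in the order of the replicates.

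Enrichment over background was closer between the libraries. The median fold enrichment was 11.45 and 11.17 for the C-MYC replicates, 7.25 and 10.995 in the POLII replicates, and 10.94 and 6.09 in the SOX2 replicates. Over all peaks of each list the medians were 10.64 and 10.49 for C-MYC, 7.61 and 7.91 for POLII, and 8.96 and 6.61 for SOX2. Enrichment in the regions was therefore above that of the whole list for C-MYC, POLII replicate 2 and SOX2 replicate 1, and below it for POLII replicate 1 and SOX2 replicate 2.

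The closest group for comparison was the 10461 regions with all 4 factor lists and POLII replicate 2 but no POLII replicate 1 peak. The median tags in those regions were 84 and 94 for C-MYC, 113 for POLII replicate 2, and 85 and 69 for SOX2 replicates 1 and 2. The regions in all 6 lists had 1.35 times and 1.32 times as many tags in the C-MYC replicates, 2.24 times as many in POLII replicate 2 and 1.74 times as many in SOX2 replicate 1, but 0.942 times as many in SOX2 replicate 2. On the log2 scale the ratio of medians was 0.41 ± 0.02 (SD, n = 2) for C-MYC and 0.36 ± 0.63 (SD, n = 2) for SOX2, so the SOX2 difference was smaller than the spread between its replicates. Without SOX2 replicate 1 in the rule the SOX2 ratio was −0.04. The C-MYC ratio exceeded the spread of its replicates, but the peaks were also longer. Their median length was 1135 against 971 bp in replicate 1 of C-MYC and 1197 against 1047 bp in its replicate 2. Per kb of peak, the median was 94.7 against 82.8 tags in C-MYC replicate 1 and 99.7 against 86.5 in its replicate 2.

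Fold enrichment of C-MYC did not follow its tags, while that of the other lists moved the same way as theirs. For C-MYC the median was 11.45 in the regions in all 6 lists and 11.66 in those without POLII replicate 1 (replicate 1), and 11.17 against 11.38 (replicate 2). POLII replicate 2 had a higher median, 10.995 against 8.96. SOX2 replicate 1 was also higher, 10.94 against 9.94, and SOX2 replicate 2 was lower, 6.09 against 6.62. The C-MYC peaks of the regions thus held more tags at nearly the same enrichment.

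Factor regions without POLII replicate 2 held fewer factor tags and were shorter. The 1247 factor regions without POLII had a median length of 899 bp and medians of 32 and 35 tags for C-MYC and 30 and 41 for SOX2. In the 211 regions with POLII replicate 1 but not replicate 2, the median length was 936 bp, and the medians were 24 and 28 tags for C-MYC and 28 and 35 for SOX2. There POLII replicate 1 held a median of 31 tags, close to its 29 tags in the regions in all 6 lists. The median of POLII replicate 1 was thus alike in both groups, whereas the medians of the 4 factor lists were lower without POLII replicate 2.

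**Figure D1:**
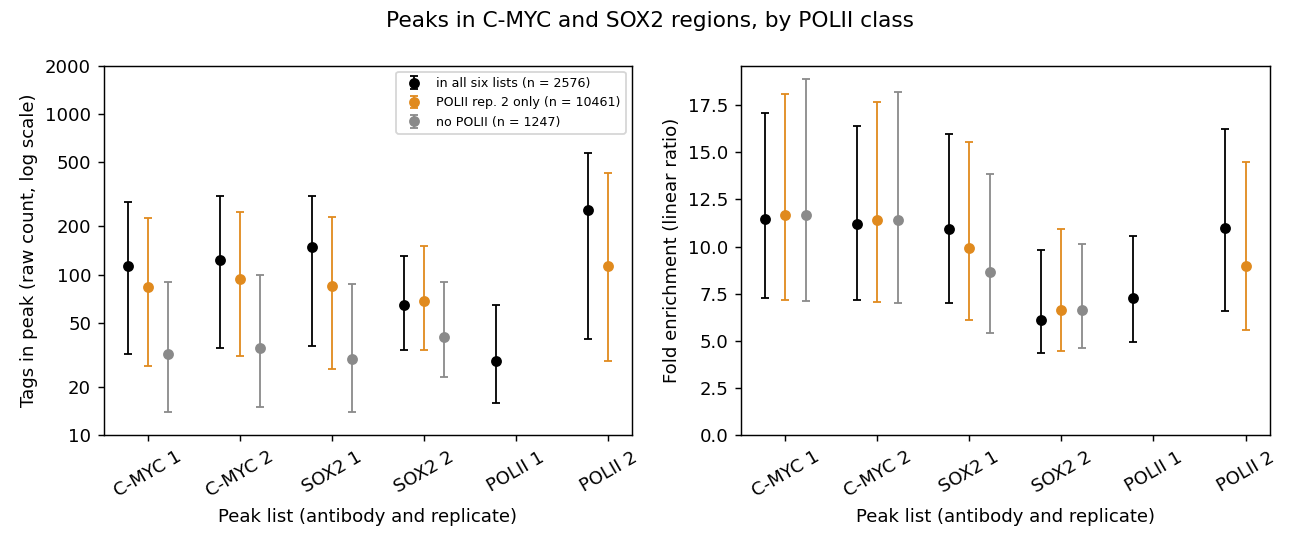
Median tags of the strongest peak in a region (left, log axis) and median fold enrichment (right, linear ratio) for each list, with bars from the 10th to the 90th percentile over regions, in the 2576 regions in all 6 lists, the 10461 with POLII replicate 2 only and the 1247 without POLII. The median tags of the regions in all 6 lists run from 29 in POLII replicate 1 to 253.5 in POLII replicate 2, and SOX2 replicate 2 is the list in which they do not lie above the regions with POLII replicate 2 only.

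The share of factor regions that were in all 6 lists changed with peak strength. When the 13037 regions with POLII replicate 2 were ordered by its tags and cut into deciles, 12.3% of the lowest decile (95% Wilson interval 10.7 to 14.2) and 36.8% of the highest decile (34.2 to 39.5) had POLII replicate 1 as well. The share stayed between 10.1% and 12.7% in the lowest 5 deciles and was higher in each decile from the sixth on, where the intervals of some neighbours overlapped. By tags of SOX2 replicate 1, over the 14495 factor regions, it was 6.21% in the lowest decile and 37.4% in the highest. By tags of C-MYC replicate 1 it was 10.6% in the lowest decile and 29.8% in the highest, and replicate 2 gave like shares. With SOX2 replicate 1 left out of the rule, the factor regions were a larger set, of which 14.7% were in all the remaining lists, against 17.8% under the full rule. In that set the share was 10.6% in the lowest and 35.5% in the highest decile of POLII replicate 2. For C-MYC replicate 1 it was 6.53% and 28.0%.

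SOX2 replicate 2 gave another shape. The share was 14.3% (12.6 to 16.2) in the lowest decile of its tags, 21.3% (19.3 to 23.5) in the sixth decile and 13.8% (12.1 to 15.7) in the highest. With SOX2 replicate 1 left out, over the larger set that this gives, it was 9.27% in the lowest, 18.7% in the seventh and 13.01% in the highest. The shares thus again peaked in the middle. Under the full rule, strong SOX2 peaks were therefore more often in all 6 lists than weak ones by replicate 1, but not by replicate 2. With SOX2 replicate 1 left out, the interval of the highest decile of replicate 2 (11.5 to 14.6) lay above that of the lowest (8.01 to 10.7). Length moved with the share too. It was 8.14% in the shortest decile of the regions, 23.3% in the eighth and 18.4% in the longest. The part of length in the relation with tags was not tested.

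**Figure D2:**
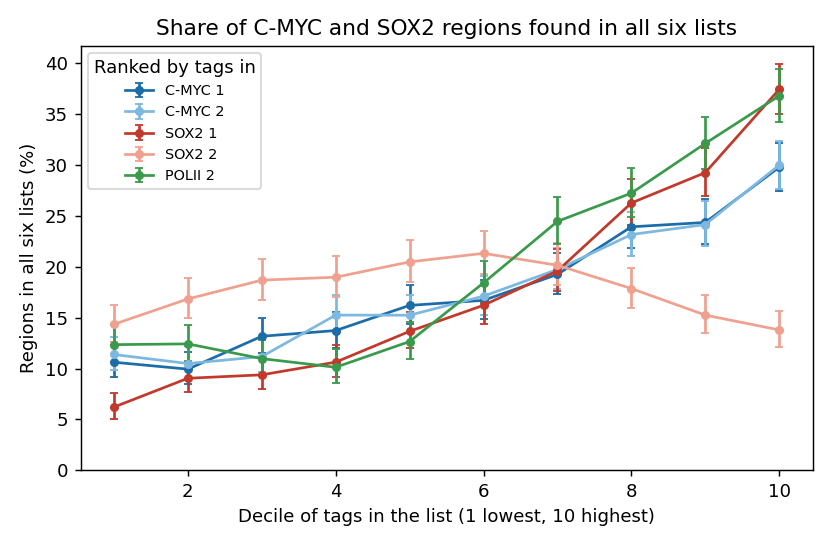
Share of regions that are in all 6 lists (y axis, %, with 95% Wilson intervals) by decile of tags in a list (x axis, lowest to highest), with a line for each list that ranked the regions. The deciles of POLII replicate 2 are of the 13037 factor regions with its peak and the others of all 14495, and the shares reach 36.8% for POLII replicate 2 and 37.4% for SOX2 replicate 1, while those of SOX2 replicate 2 are highest in the middle.

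Within the 2576 regions the lists were compared in 15 pairs. Correlations across regions are descriptions, since the regions share libraries and long regions hold more tags in every list. The tags of the C-MYC replicates had a Spearman correlation of 0.98 (n = 2576 regions). The next highest pair was SOX2 replicate 1 with POLII replicate 2, at 0.93, above the correlation of 0.41 between the SOX2 replicates. POLII replicate 1 and POLII replicate 2 had a correlation of −0.05. C-MYC had correlations of 0.75 with SOX2 replicate 1, 0.49 and 0.50 with SOX2 replicate 2, and 0.73 with POLII replicate 2.

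Dividing each count by the length of its peak left the order of these pairs. The correlation was then 0.96 between the C-MYC replicates, 0.89 between SOX2 replicate 1 and POLII replicate 2, 0.22 between the SOX2 replicates and −0.24 between the POLII replicates. In the 10461 regions without POLII replicate 1, SOX2 replicate 1 with POLII replicate 2 had 0.86 by tags and the SOX2 replicates had 0.34. The likeness of SOX2 replicate 1 to POLII replicate 2 was therefore not limited to regions with POLII replicate 1.

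**Figure D3:**
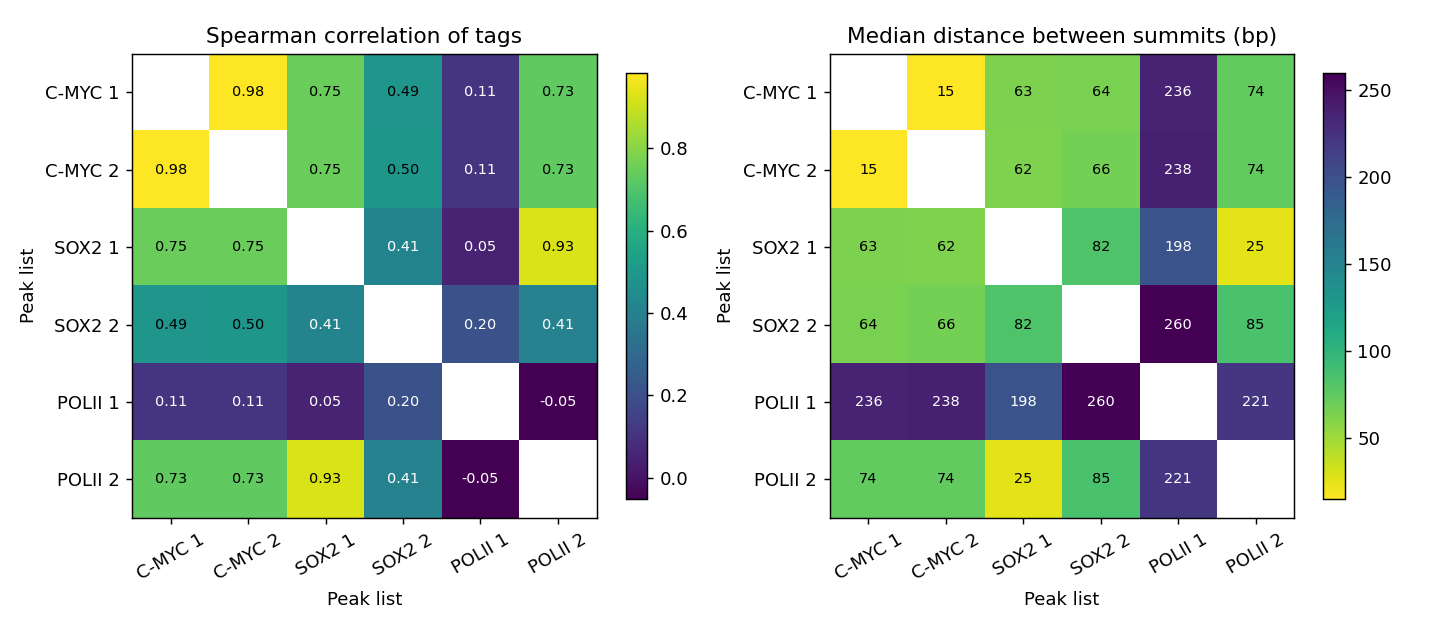
Spearman correlation of tags and median distance between summits (bp) for the 15 pairs of lists over the 2576 regions, as 2 grids with a list on each axis. The C-MYC replicates (0.98, 15 bp) and SOX2 replicate 1 with POLII replicate 2 (0.93, 25 bp) are the closest pairs, and POLII replicate 1 is far from each other list.

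The summit of a peak is its position of highest coverage. The summits of the C-MYC replicates lay a median of 15 bp apart, and 91.5% of the regions had them within 100 bp. SOX2 replicate 1 and POLII replicate 2 had summits a median of 25 bp apart, with 83.5% within 100 bp. The SOX2 replicates were a median of 82 bp apart with 57.3% within 100 bp, and the POLII replicates 221 bp apart with 29.2%. POLII replicate 1 was from 197.5 to 260 bp from the other lists.

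C-MYC and SOX2 summits were 63.75 ± 1.71 bp apart (mean of the medians ± SD, n = 4 pairs of replicates, which share libraries). The medians were 63 and 62 bp to SOX2 replicate 1, and 64 and 66 bp to SOX2 replicate 2, for C-MYC replicates 1 and 2. Over all the regions the medians were thus alike for both SOX2 replicates. By quintiles of POLII replicate 2 tags they were alike in the third, but not in the lowest and highest. From C-MYC replicate 1 the median was 40 bp to SOX2 replicate 1 and 49 bp to SOX2 replicate 2 in the lowest quintile. It was 68 and 65 bp in the third and 96 and 82 bp in the highest. In the 10461 regions without POLII replicate 1 the same pairs were 42, 43, 52 and 53 bp apart, closer than in the regions in all 6 lists for each of the 4 pairs. C-MYC summits were a median of 74 bp from those of POLII replicate 2 in both C-MYC replicates, against 56 bp without POLII replicate 1.

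SOX2 replicate 1 had its summit nearer to POLII replicate 2 than to SOX2 replicate 2 in 1811 of the 2576 regions, or 70.3% (95% Wilson interval 68.5 to 72.0), with 19 ties. In the 10461 regions without POLII replicate 1 this was so in 62.6%. The share in the regions in all 6 lists was thus the higher one.

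Taking all 6 summits of a region, the outermost ones lay a median of 377 bp apart, and 8.04% of the regions had all 6 within 100 bp. Without POLII replicate 1 the other 5 summits spanned a median of 164 bp, and 30.9% of the regions had them within 100 bp. The summit farthest from the others was that of POLII replicate 1 in 1505 regions (58.4%), of SOX2 replicate 2 in 451 (17.5%) and of POLII replicate 2 in 212 (8.23%). SOX2 replicate 1 and the C-MYC replicates were farthest in 125 to 151 regions each. Summits of POLII replicate 1 lay in the outermost quintiles of the region's length, or outside the region, in 15.6% of the regions. For the other lists this was 3.42% to 7.07%. The regions were merged from C-MYC and SOX2 peaks, so only POLII summits could lie outside them, and the lists are not fully comparable in this.

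**Figure D4:**
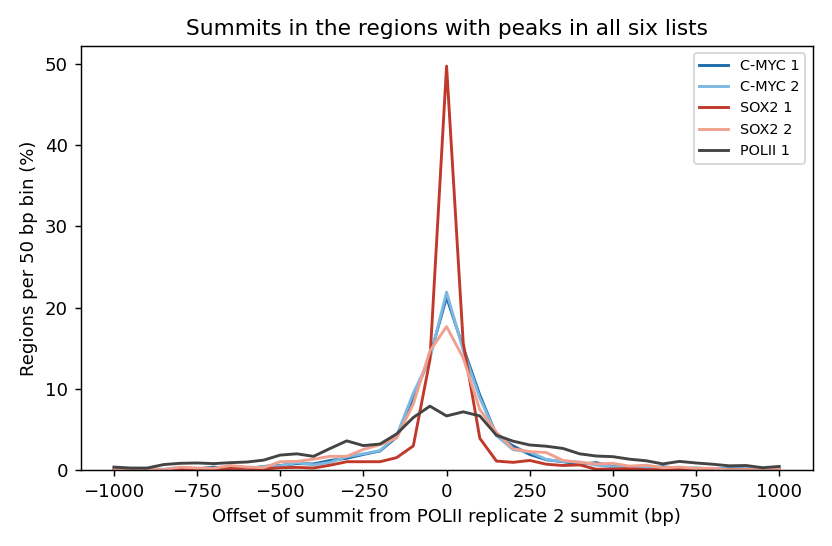
Share of the 2576 regions (y axis, %, in bins of 50 bp) by the distance of each list's summit from the POLII replicate 2 summit (x axis, bp, both sides), with a line for each of the other 5 lists. SOX2 replicate 1 has 49.7% of its summits in the central bin, the C-MYC replicates 21.3% and 21.9%, SOX2 replicate 2 17.7%, and POLII replicate 1, the flattest line, 6.68%.

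The regions were not uniform in POLII. When they were ordered by tags of POLII replicate 2 and cut into quintiles, the median of that list went from 40 to 575 tags. Across the same quintiles C-MYC replicate 1 went from 39 to 226 tags, C-MYC replicate 2 from 44 to 251 and SOX2 replicate 1 from 41 to 304. SOX2 replicate 2 had medians of 47, 62, 59, 65 and 92 tags, and POLII replicate 1 had 35, 29, 28, 27 and 31. The median length of the regions went from 987 to 1839 bp. More POLII replicate 2 tags therefore came with more C-MYC and SOX2 replicate 1 tags and with longer regions, but POLII replicate 1 did not climb with them. In the 13037 regions that a rule without POLII replicate 1 gave, the medians of C-MYC replicate 1 went from 35 to 186 and those of SOX2 replicate 1 from 32 to 240, while SOX2 replicate 2 had 46, 72, 90, 63 and 81. With SOX2 replicate 1 left out, C-MYC replicate 1 went from 36 to 228.5 and POLII replicate 1 from 34 to 31.

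Fold enrichment of C-MYC ran the other way. It was 12.65 in the lowest quintile and 10.25 in the highest in C-MYC replicate 1, and went from 12.305 to 10.10 in replicate 2. SOX2 replicate 2 went from 7.125 to 5.64, whereas SOX2 replicate 1 was 9.87 in the lowest quintile, 11.97 in the fourth and 10.80 in the highest. The summit of SOX2 replicate 1 was a median of 44 bp from that of POLII replicate 2 in the lowest quintile and 19 bp in the highest. Its distance to SOX2 replicate 2 was 53.5 bp in the lowest quintile and 97 bp in the highest. The SOX2 replicates thus placed their summits farther apart in the regions with the most POLII replicate 2 tags, which were also longer. So did every other pair of lists except the C-MYC replicates, at 15 and 12 bp, and SOX2 replicate 1 with POLII replicate 2. From C-MYC replicate 1 to POLII replicate 2, for instance, the median was 46 bp in the lowest quintile and 108 bp in the highest.

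**Figure D5:**
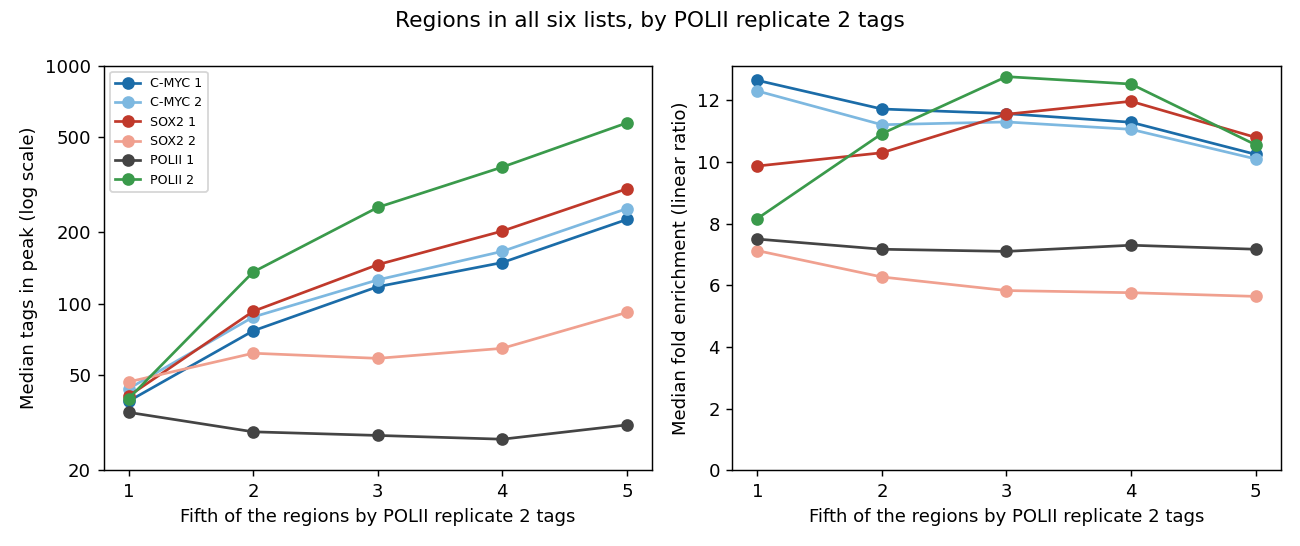
Median tags (left, log axis) and median fold enrichment (right, linear ratio) of each list in quintiles of the 2576 regions ordered by POLII replicate 2 tags (x axis, lowest to highest). Tags of C-MYC and SOX2 replicate 1 climb with POLII replicate 2, SOX2 replicate 2 goes from 47 to 92 tags and POLII replicate 1 lies between 27 and 35, while the enrichment of C-MYC goes down.

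In 265 of the 2576 regions, 10.3% (95% Wilson interval 9.17 to 11.5), the POLII replicate 1 peak held more tags than the POLII replicate 2 peak. Among all 4962 merged regions with both POLII lists this was so in 24.7%. The 265 regions had a median of 66 tags in POLII replicate 1 and 36 in POLII replicate 2, against 28 and 279 in the other regions. That contrast follows from how they were picked. They were weaker in C-MYC, with 36 and 39 tags against 123 and 136, and in SOX2, with 49 and 47 against 159 and 67. Their median length was 1015 bp, against 1465 bp. In the quintiles above, regions low in POLII replicate 2 also held fewer C-MYC and SOX2 replicate 1 tags and were shorter. The part of this in the values of the 265 regions was not tested. When the 265 regions were left out, 2311 regions remained. With SOX2 replicate 1 left out of the rule, POLII replicate 1 held more tags in 304 of 2638 regions, or 11.5%.

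The regions were spread over the autosomes and sparse on the X chromosome. Of the factor regions on an autosome, between 13.8% (chromosome 15) and 21.9% (chromosome 3) were in all 6 lists. On the X chromosome 12 of 284 were, or 4.23% (95% Wilson interval 2.43 to 7.24), an interval below that of every autosome. The X chromosome held 0.466% of the regions in all 6 lists and 2.28% of the other factor regions. POLII replicate 1 had 0.435% of its peaks on the X chromosome and POLII replicate 2 had 2.21%, and the other lists had 1.82% to 2.08%. Without POLII replicate 1 in the rule, 265 of the 284 factor regions on the X chromosome were kept, or 93.3% (89.8 to 95.7), against 85.9% to 92.3% on the autosomes, so the scarcity was not seen without that list. With SOX2 replicate 1 left out it was 3.78% on the X chromosome, against 11.8% to 17.9% on the autosomes.

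Neighbouring regions lay a median of 367.6 kb apart, with the closest pair 1341 bp apart, and 14 gaps were under 5 kb. The 10461 regions without POLII replicate 1 were more numerous and lay a median of 78.4 kb apart. With SOX2 replicate 1 left out of the rule the median was 361.6 kb. The densest window of 1 Mb was on chromosome 13 from 67 to 68 Mb, where 14 of 17 factor regions were in all 6 lists, between positions 67005707 and 67881340 of build mm9. It was 14 of 17 also with SOX2 replicate 1 left out, and 17 of 17 with POLII replicate 1 left out, when another window held the most, 30 regions. In each list the median tags of those 14 regions lay below the median over all the regions in all 6 lists. The medians were 64 and 70 tags for C-MYC, against 113 and 124. For POLII they were 27 and 165, against 29 and 253.5, and for SOX2 93 and 43.5, against 148 and 65. The lengths of the 14 regions lay between 864 and 1578 bp. The next densest windows, chromosome 9 from 20 to 21 Mb and chromosome 19 from 8 to 9 Mb, held 9 of 19 and 9 of 15.

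On a distal stretch of chromosome 6, 12 of 27 factor regions were in all 6 lists, against 154 of 802 on the whole chromosome. The stretch was set with earlier results of these data known. The part of that choice in the contrasts of tags was not tested. Within the stretch the SOX2 replicates differed strongly. The 12 regions had a median of 27.5 tags in SOX2 replicate 1, from 15 to 259, and of 542.5 in SOX2 replicate 2, from 98 to 1303. Elsewhere the medians were 148 and 64. C-MYC had 174.5 and 194 tags there against 113 and 124, POLII replicate 1 had 37 against 29 and POLII replicate 2 had 463 against 253.5. The SOX2 replicates thus moved in opposite directions in this stretch, and without it 2564 regions remained.

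Single regions show the range. The region with the highest ranks over the 6 lists together was chr7:7250451-7253607, 3157 bp long. Its peaks held 374 and 424 tags for C-MYC, 110 and 1125 for POLII and 719 and 166 for SOX2. The second was chr11:118149693-118152374 with 612 and 657 tags for C-MYC, 77 and 845 for POLII and 398 and 190 for SOX2. The third, chr9:59503542-59505797, held 621 and 649 for C-MYC, 67 and 835 for POLII and 482 and 153 for SOX2. In each of these the C-MYC replicates were close, and POLII replicate 2 and SOX2 replicate 1 held more tags than their partner replicate.

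The fourth, chr5:100857897-100859579, held 584 and 613 tags for C-MYC, 62 and 835 for POLII and 513 and 150 for SOX2, and its 6 summits spanned only 110 bp. The fifth was on chromosome 18, with 564 and 610 for C-MYC, 106 and 572 for POLII and 419 and 170 for SOX2. Enrichment in the 5 was not high throughout. It was 5.99 and 6.46 for C-MYC in the first and 5.50 and 5.39 in the fifth, against medians of 11.45 and 11.17 over all the regions.

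The summits of the longest regions lay apart to different degrees. The longest, chr6:142463969-142475600, was 11632 bp long and in the distal stretch of chromosome 6, and it held 46 and 54 tags for C-MYC, 71 and 230 for POLII and 25 and 1303 for SOX2. Its summits spanned 6310 bp, with or without POLII replicate 1. The next was chr8:73415224-73422587 (7364 bp), whose summits spanned 1132 bp, but 308 bp without POLII replicate 1. In chr7:123173254-123178780 (5527 bp) they spanned 4166 bp, and 3681 bp without that list.

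The shortest regions held few tags at high enrichment. In the shortest, chrX:84483569-84483853 (285 bp), there were 12 and 9 tags for C-MYC, 27 and 15 for POLII and 23 and 23 for SOX2, with fold enrichments from 14.69 to 29.36. The region chr15:79804250-79804543 (294 bp) had 20 to 51 tags by list and summits that spanned 9 bp. In chr4:118220704-118221011 (308 bp), with 29 to 67 tags and fold enrichments from 17.26 to 31.22, the summits spanned 2 bp. By raw tags, POLII replicate 1 was the highest list in each of these 3. By fold enrichment it was the lowest in the regions on chromosomes 15 and 4, at 16.54 and 17.26.

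A few regions were picked after their values were seen, for the highest POLII counts. POLII replicate 1 was highest in chr2:31304060-31306859, with 1280 tags against 292 in POLII replicate 2, 194 and 223 for C-MYC and 223 and 236 for SOX2. The next was chr2:98506276-98507808, where both replicates of POLII, with 586 and 689 tags, and of SOX2, with 586 and 723, were high, and C-MYC had 197 and 210. POLII replicate 2 was highest in chr11:62415693-62417429, with 3500 tags against 64 in POLII replicate 1, 338 and 390 for C-MYC and 643 and 131 for SOX2. The region highest in POLII replicate 1 thus lay near the median of POLII replicate 2, and the one highest in POLII replicate 2 lay near the 90th percentile of replicate 1, which was 65 tags.

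The rule has an edge at 1 bp of overlap. Just inside it, chr17:29418927-29420125 overlapped its POLII peak by 2 bp, chr11:107826472-107827786 by 3 bp and chr12:86603240-86604020 by 7 bp. These held 45, 73 and 25 tags in POLII replicate 1 and 70, 108 and 82 in POLII replicate 2. Just outside it, chr4:22022300-22023301, chr2:103530171-103531929 and chr11:114564676-114566510 lay 1, 10 and 13 bp from a POLII replicate 1 peak. They held 66, 108 and 199 tags in POLII replicate 2. Few regions stood at the edge for POLII, since 18 had a smallest overlap with a POLII peak under 50 bp. The median of that smallest overlap was 670 bp over the regions. The overlaps by which C-MYC and SOX2 peaks were merged are not given here. Of the 10672 factor regions with 1 POLII list, 51 lay within 100 bp of a peak of the other and 547 within 1 kb.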

How the data were processed

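ChIP-seq peak lists of 3 antibodies, against C-MYC, SOX2 and RNA POLII, were analysed, 2 biological replicates an antibody. Peaks were called replicate by replicate. For each peak the authors deposited start, end, summit, the raw count of tags, the fold enrichment (a linear ratio over background) and a score, which is −log10 of the p-value multiplied by 10. The submitters' processing notes name build mm9. The aligner, the peak caller, its control and the filters are not given in the sources used here. The sequencing depth of a library is not in the lists, so the total of tags within peaks stands for it, and intervals cover counting error only.

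Peaks were merged where they shared at least 1 bp. Where a list had several peaks in a region, the one with the most tags gave the values and the summit, taken as start plus the deposited offset. Python 3.11.15, numpy 2.4.6, pandas 2.3.3, scipy 1.17.1 and matplotlib 3.10.9 were used. The merging was checked with bedtools 2.31.1, which gave the same 70193 merged regions and 2576 regions in all 6 lists, and the scripts were tested on 2000 simulated regions, where 4 of 4 quantities were recovered. No test between groups was made, since the lists that chose the regions are the only measurements. Regions and alternatives were chosen with earlier results of these data known. The rule for single regions took the 5 with the highest geometric mean of ranks, the 3 longest, the 3 shortest and the 3 on each side of the overlap threshold. Genes were to be named only with an annotation of build mm9, and genes, transcription starts and sequences were not analysed here. Alternatives were a stricter overlap, wider merging, summits inside the region, higher scores, equal numbers of peaks, leaving out each list, leaving out distal chromosome 6, and leaving out regions with more POLII replicate 1 than replicate 2 tags. The last of these, the alternatives for correlations and log2 ratios of tags, and those by chromosome, decile and quintile, were added after seeing the data.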

Additional observations from a re-analysis of the deposited data

How the results depend on the processing

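Of 152 alternative values, 112 were within 1.5 times of the count, within the spread between replicates or, where there was none, within 10% or the 95% interval of the value as reported, 39 moved further and 1 changed sign. The spread between replicates is a lenient limit where it is wide, so the tally does not show that such results are stable. The SOX2 enrichment, 8.515 ± 3.43 (SD, n = 2), ran from 6.08 to 10.475, and all 14 alternatives counted as within the spread. The number of regions in all 6 lists (2576) was 877 with the highest-scoring 50% of each list and 1384 when each list was cut to its 26637 best-scoring peaks. Leaving out 1 list at a time gave from 2601 to 13037 regions, the highest without POLII replicate 1 and the next, 3550, without SOX2 replicate 2. The other 5 alternatives gave 2311 to 2634. The share of factor regions in all 6 lists (17.8%) was 17.1% with summits inside the region, 12.3% with the highest-scoring 50%, 11.7% with equal numbers of peaks and 16.2% without the regions with more POLII replicate 1 tags. Leaving out 1 list gave from 14.7% (without SOX2 replicate 1) to 89.9% (without POLII replicate 1). The log2 ratio of median SOX2 tags, 0.36, was −0.0437 without SOX2 replicate 1 and 0.66 without SOX2 replicate 2, and the cause was not tested. The C-MYC ratio was 0.32 to 0.54 and that of POLII replicate 2 0.89 to 1.32 over 11 alternatives each. The distance between C-MYC and SOX2 summits was 50.25 to 66.5 bp over 14 alternatives, the lowest without POLII replicate 1. The correlation of tags between SOX2 replicate 1 and POLII replicate 2 was 0.88 to 0.93 over 12 alternatives, and that between the SOX2 replicates 0.22 to 0.47. Alternatives for transcription starts and sequence features were not run. No paired analysis was possible because the result comes from no test. POLII replicate 1 had a median of 23 tags per peak, and the part of its low counts in the number of regions was not tested.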
